A study of Homo sapiens with 8 samples.

Results

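The DNA replication machinery is described here by 35 genes. They were chosen by gene symbol for their known roles in origin licensing, helicase activation, DNA synthesis, nucleotide supply and chromatin assembly. Earlier results of these data were known at the choice, so shares of the 35 beside those of all entries are descriptive. All 35 were among the 29991 entries of the deposited table. Polyadenylated RNA of MCF10A, an immortalised but non-tumorigenic human breast epithelial cell line, was sequenced after transfection with 4 kinds of siRNA, 2 libraries each. The siControl group received a control siRNA, the siLATS group (siLATS1/2 in the labels) siRNA against the kinases LATS1 and LATS2, the sip53 group siRNA against p53, and the siLATS_p53 group (siLATS1/2/p53 in the labels) siRNA against LATS1, LATS2 and p53 together. All groups were thus transfected, and none was left untreated. The time after transfection and the siRNA dose and sequence were not used here. The replicate number marks 1 of 2 independent batches of cells, so the main tests measure the spread between batches of 1 cell line. Where the batch was entered in the model as a block, the mean difference between batches was taken out of that spread.

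Replication origins are licensed when ORC, CDC6 and CDT1 load the MCM2-7 ring onto DNA, and fire when CDC45 and the GINS complex join it to form the active helicase. Polymerase alpha with primase then lays down primers, the RFC complex loads the sliding clamp PCNA, and the leading and lagging strands are copied and matured while nucleotides and histones are supplied. Transcription of many of these genes in proliferating cells depends on E2F factors held in check by the RB family. LATS1 and LATS2 are the Hippo pathway kinases that restrain YAP and TAZ, and p53 limits the cell cycle largely through CDKN1A, an inhibitor of cyclin-dependent kinases that keeps RB proteins active.

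Values are log2 expression levels, given for replicate 1 and then replicate 2. The deposited values had a floor of 5, and the 35 genes were above it in all 8 libraries, the lowest at 7.49. Summed on the linear scale the libraries held 23.7 to 24.9 M, and 11756 to 12064 entries stood above the floor. Depth was not given. The spacing of low values put it at an estimated 11.3 to 37.1 M reads, lowest in siLATS_p53 replicate 1 and siControl replicate 1. LATS1 fell by 1.58 in siLATS against siControl (2.98-fold lower, SE 0.11, limma, adjusted p = 0.0015), and LATS2 fell by 1.39 (SE 0.14, adjusted p = 0.0036). All 10 epithelial markers were above the floor in every library, and 12 of 17 markers of fibroblasts, blood, endothelium and hormone receptor-positive cells were at the floor in every library, PTPRC, PECAM1, VWF, CDH5, COL1A2, COL3A1 and PDGFRB among them. The fibroblast gene COL1A1 (6.60 to 7.75) and the macrophage gene CD68 (8.78 to 9.35) were above it in all libraries. DCN, another fibroblast gene, ranged from 5 to 9.86 and was higher in replicate 1 of every group, and KDR and ESR1 reached 6.13 and 6.26. The linear sum of those 17 was 1013.5 to 1652.6 in siControl, 734 to 1006 in siLATS, 791 to 1484 in sip53 and 825 to 1047.5 in siLATS_p53; the part of this difference in the results was not tested. Fewer dividing cells and less of these transcripts per dividing cell cannot be told apart in bulk RNA.

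Promoter sequences show what the genes share at the DNA level apart from their levels. RefSeq windows (GRCh38.p14, 250 bases before each annotated start, both strands searched) were matched for 32 of the 35 genes (all but MCM4, MCM5 and GINS4), as 43 windows. The E2F-type letters TTTCCCGC, TTTGGCGC, TTTCGCGC or TTTGCCGC stood in 14 of 43 windows (32.6%), against 2.79% of all 35116 windows. By gene these were 13 of 32 (40.6%, against 3.4% of 27305 genes): MCM3, MCM6, MCM7, CDT1, GINS2, PCNA, RFC3, POLA1, POLA2, POLE, UNG, TYMS and UHRF1. CCAAT, the letters bound by NF-Y, stood in 25 windows (58.1%, against 32% of all), and the CHR letters TTTGAA or TTCGAA, an element known from late cell cycle genes, in 3 (6.98%, against 14.3%). These are matches of letters, not measured binding sites.

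The MCM6 window is printed because it held the most E2F-type matches, 4, and was chosen after the matches were counted. Capitals mark every motif match.
MCM6 (chr2:135876444-135876693, minus strand): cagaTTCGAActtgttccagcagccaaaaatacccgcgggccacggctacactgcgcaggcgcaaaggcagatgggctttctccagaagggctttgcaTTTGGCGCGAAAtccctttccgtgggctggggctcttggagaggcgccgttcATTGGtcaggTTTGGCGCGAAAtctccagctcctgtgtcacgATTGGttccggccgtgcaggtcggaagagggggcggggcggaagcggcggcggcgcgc
Its E2F-type matches form 2 identical runs, each read as TTTGGCGC on the gene's strand and, overlapping it, as TTTCGCGC on the other. CCAAT appears in it on the other strand, as ATTGG, at 2 places, and the CHR letters TTCGAA once near its far end. The next stretches, of 30 bases, set single E2F-type matches of a licensing factor, a helicase subunit, the clamp, a clamp loader subunit, a polymerase subunit and a repair enzyme side by side, with the match in capitals and its first base counted back from the start.
CDT1 (chr16:88803743-88803772, plus strand, motif at -35): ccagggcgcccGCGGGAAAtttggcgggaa
GINS2 (chr16:85688967-85688996, minus strand, motif at -31): ctctcgccgtgGCGGGAAAacggcggccgc
PCNA (chr20:5126663-5126692, minus strand, motif at -59): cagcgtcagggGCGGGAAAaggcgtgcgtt
RFC3 (chr13:33818083-33818112, plus strand, motif at -55): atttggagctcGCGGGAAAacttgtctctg
POLA2 (chr11:65261898-65261927, plus strand, motif at -53): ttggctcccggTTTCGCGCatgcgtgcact
UNG (chr12:109098098-109098127, plus strand, motif at -63): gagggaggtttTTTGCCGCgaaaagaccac
In CDT1, GINS2, PCNA and RFC3 the match was the same 8 letters, GCGGGAAA on the gene's strand and so TTTCCCGC on the other. RRM2, the gene of the 35 that rose most in the combined knockdown, had no E2F-type match, like MCM2, GINS1 and others. Its window nearest the gene held CCAAT 3 times, each followed by the same 8 bases.
RRM2 (chr2:10122604-10122633, plus strand, motif at -123): ggcaaggcgcagCCAATgggaagggtcgga
RRM2 (chr2:10122634-10122663, plus strand, motif at -93): ggcatggcacagCCAATgggaagggccggg
RRM2 (chr2:10122661-10122690, plus strand, motif at -66): ggggcaccaaagCCAATgggaagggccggg

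Across the 4 groups the genes kept a common order. In 22 of 35 (62.9%) both siLATS libraries lay below both siControl libraries, which in turn lay below all 4 libraries with p53 siRNA, a pattern found in 6.3% of the 12315 entries tested. In 26 of 35 (74.3%) the siLATS libraries lay below all 6 others, as in 21.5% of all entries. The siLATS group had the lowest mean in 34 of 35 genes, RRM2 being the exception. The highest mean was in sip53 for 26 genes, in siLATS_p53 for 7 (CDT1, GINS1, GINS3, RRM2, TK1, CHAF1A, UHRF1) and in siControl for RRM1 and TYMS. Shares of all entries with their lowest or highest mean in each group were not counted. By group means 61.2% of all entries were lower in siLATS than in siControl, and 60.3% were higher in sip53 than in siControl. In siLATS_p53 69.7% were higher than in siLATS.

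**Figure D1:**
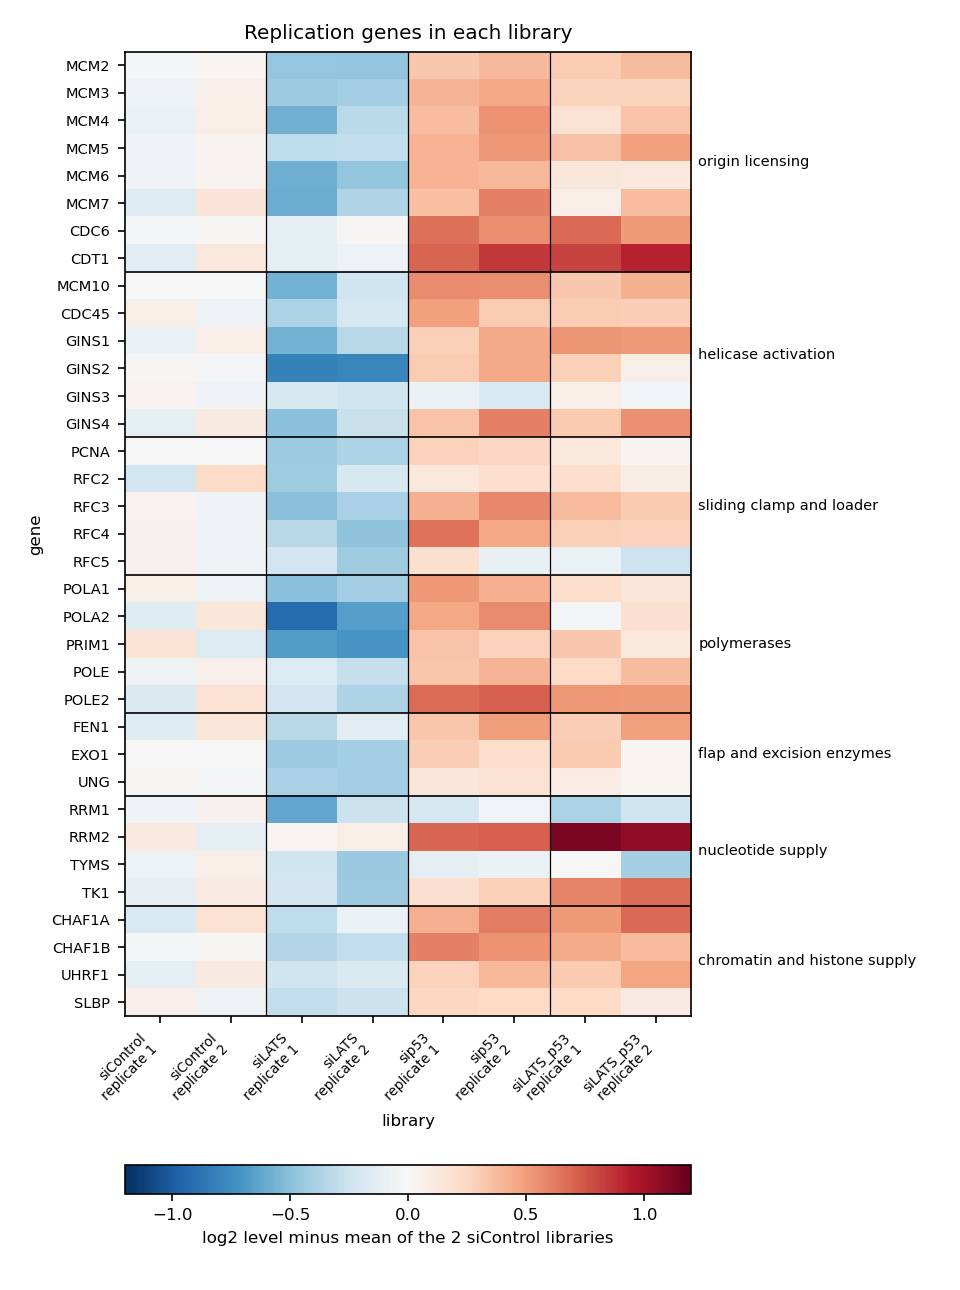
Level of each of the 35 genes (vertical axis, ordered by role) in each of the 8 libraries (horizontal axis), as the log2 difference from the mean of the 2 siControl libraries. The siLATS columns are mostly below siControl and the sip53 and siLATS_p53 columns mostly above it, with RRM2 highest in siLATS_p53.

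LATS1/2 knockdown alone lowered 10 of the 35 genes and raised none. The 10 were MCM2, MCM3 and MCM6 of the helicase ring, the GINS2 subunit, the clamp PCNA and its loader subunit RFC3, the polymerase alpha-primase genes POLA1, POLA2 and PRIM1, and the uracil glycosylase UNG. GINS2 fell by 0.80 (SE 0.12, limma, adjusted p = 0.011), which was 1.74-fold, and POLA2 fell by 0.79 (SE 0.14, adjusted p = 0.023). Of all entries tested, 4.89% were lower and 2.81% higher. At an unadjusted p under 0.05, 25 of the 35 were lower and 0 higher, where 17.3% and 7.94% of all entries were. The median of the 35 was -0.38, beside -0.07 over all entries, and differences ran from -0.80 to 0.05. No gene of nucleotide supply or chromatin assembly passed in this model, and 3 of 4 in each did with the batch as a block. The licensing factors CDC6 (-0.05, adjusted p = 0.80) and CDT1 (-0.09, adjusted p = 0.70) and the reductase subunit RRM2 (0.05, adjusted p = 0.81) lay nearest to 0.

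The 2 groups did not overlap in 29 of the 35 genes, all lower with LATS siRNA (34.8% of all entries). In both batches 33 were lower, as were 5876 of all 12315 entries. With the batch of cells as a block in the limma model, 28 of 35 were lower (21.4% of all entries), leaving out CDC6, CDT1, RRM2, GINS3, RFC2, POLE2 and CHAF1A. The 10 calls rested on all libraries, and calls became fewer among the 35 genes and all entries when any 1 was left out. The median of the 35 was then -0.41 to -0.33, beside -0.08 to -0.07 over all entries.

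p53 knockdown alone raised 11 of the 35 genes and lowered none, where 1.76% of all entries were higher and 2.1% lower. These were MCM3, MCM5 and MCM6, the loading factors CDC6 and CDT1, the initiation factor MCM10, the clamp loader subunits RFC3 and RFC4, the polymerase alpha catalytic subunit POLA1, RRM2 and the chromatin assembly subunit CHAF1B. CDT1 rose by 0.77 (SE 0.12, limma, adjusted p = 0.028), which was 1.71-fold, RRM2 by 0.71 (SE 0.10, adjusted p = 0.017) and CDC6 by 0.61 (SE 0.10, adjusted p = 0.027). The median of the 35 was 0.41, beside 0.06 over all entries, and 26 were higher and 0 lower at an unadjusted p under 0.05 (13.1% and 8.23% of all entries). RRM1 (-0.12, adjusted p = 0.66), TYMS (-0.09, adjusted p = 0.78), GINS3 (-0.13, adjusted p = 0.57) and RFC5 (0.05, adjusted p = 0.88) did not pass. These and the previous differences share the siControl libraries.

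In 30 of the 35 genes both sip53 libraries lay above both siControl libraries (31.4% of all entries), and in GINS3 and TYMS below them (18%). With the batch as a block 26 were higher, where 16% of all entries were. Calls became fewer among the 35 genes and all entries when any 1 library was left out. The median of the 35 was then 0.34 to 0.45, beside 0.04 to 0.08 over all entries.

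With both knockdowns 9 of the 35 genes were higher than in siControl and none lower (9.07% and 5.48% of all entries). RRM2 rose by 1.10 (SE 0.10, limma, adjusted p = 0.0014), CDT1 by 0.87 (SE 0.12, adjusted p = 0.0062) and TK1 by 0.63 (SE 0.12, adjusted p = 0.015). The others were MCM2, MCM5, CDC6, GINS1, CHAF1A and CHAF1B, between 0.34 and 0.60. The median of the 35 was 0.28, beside 0.08 over all entries, and 19 were higher and 0 lower at an unadjusted p under 0.05 (19.8% and 10.8% of all entries). This comparison uses the same siControl libraries. The groups did not overlap in 27 genes that were higher (34.7% of all entries), and in RFC5 and RRM1 the combined knockdown lay lower (19.3%). With the batch as a block 21 were higher (25.5% of all entries) and 1 lower (13.8%): RRM1 fell by 0.31 in that model (adjusted p = 0.0046). When any 1 library was left out, fewer of all entries passed. Fewer of the 35 genes passed too, except without siControl replicate 2, where their number stayed the same. The median of the 35 ran from 0.25 to 0.34 when 1 library was left out, beside 0.05 to 0.11 over all entries.

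**Figure D2:**
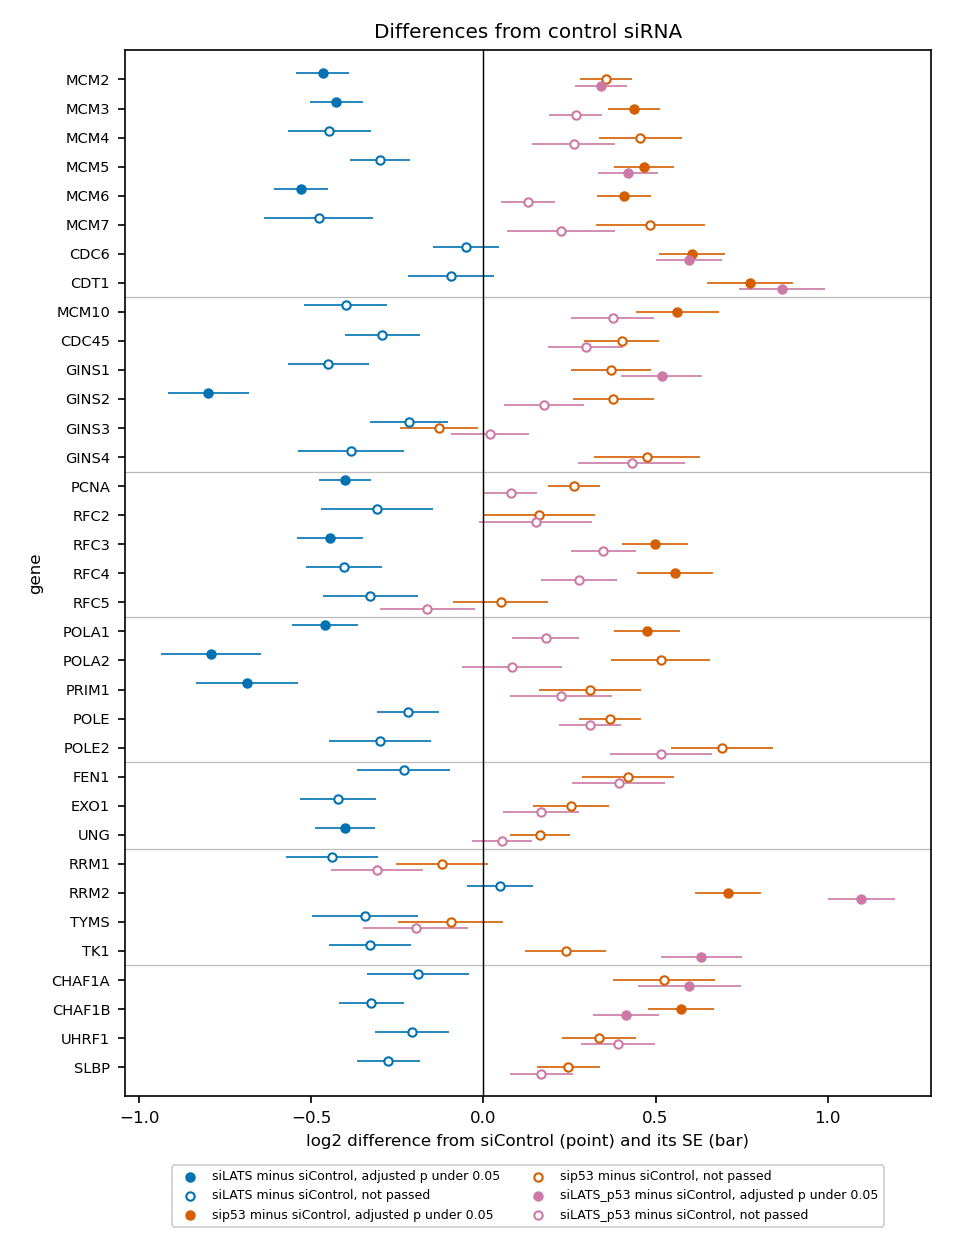
Log2 difference of each of the 35 genes from siControl (horizontal axis, bars are the SE of the limma model) for siLATS, sip53 and siLATS_p53, with filled symbols for an adjusted p under 0.05. The siLATS differences run from -0.80 to 0.05 and those of siLATS_p53 from -0.31 to 1.10.

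Adding p53 siRNA to LATS siRNA gave the most calls: 30 of the 35 genes rose against siLATS and none fell (11.3% and 3.22% of all entries). All 8 licensing genes, all 5 polymerase genes, all 3 flap and excision enzymes and all 4 chromatin genes passed, with 5 of 6 in helicase activation, 3 of 5 in the clamp and its loader, and 2 of 4 in nucleotide supply. RRM2 rose by 1.05 (SE 0.10, limma, adjusted p = 0.0042), which was 2.07-fold, and GINS1 by 0.97 (SE 0.12, adjusted p = 0.0058). The 5 that did not pass were RFC2 (0.46, adjusted p = 0.099), GINS3 (0.24, adjusted p = 0.19), RFC5 (0.16, adjusted p = 0.45), TYMS (0.15, adjusted p = 0.54) and RRM1 (0.13, adjusted p = 0.53). The median of the 35 was 0.70, beside 0.15 over all entries, and 31 were higher and 0 lower at an unadjusted p under 0.05 (26.2% and 7.06% of all entries). Libraries of the 2 groups did not overlap in 32 genes (46.1% of all entries), and with the batch as a block 31 passed (33.8%), RFC2 being added (adjusted p = 0.0067).

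In this comparison the scaling of the libraries mattered for the 35 genes and for the rest of the table. When each library was rescaled by the median of its ratios, the median of all entries moved from 0.15 to 0.0016. Among all entries 1395 higher and 396 lower calls became 543 and 649. The replication genes then had a median of 0.54, with 24 higher and 0 lower, and RRM1 and TYMS changed sign (-0.03 and -0.01). The same rescaling turned 346 higher and 602 lower entries under LATS1/2 knockdown into 436 and 348, 217 and 258 under p53 knockdown into 115 and 332, and 1117 and 675 under the combined knockdown into 833 and 920. The replication genes had 6 lower, 5 higher and 6 higher calls in those comparisons, and none in the opposite direction. Calls in siLATS_p53 against siLATS became fewer among the 35 genes and all entries when any 1 library of these 2 groups was left out. Without siLATS replicate 1 most calls were lost, among the 35 genes and among all entries. The median of the 35 was then 0.60, with 34 differences positive (0.16 over all entries). Without siLATS replicate 2 it was 0.72 (0.14 over all entries). The median was 0.71 without siLATS_p53 replicate 1 (0.12 over all entries) and 0.69 without its replicate 2 (0.18).

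Adding LATS siRNA to p53 siRNA gave no call among the 35 genes in either direction with limma (1.12% of all entries were lower and 2.54% higher), and 5 were lower and 2 higher at an unadjusted p under 0.05, where 7.75% and 10.2% of all entries were. The median was -0.10, beside 0.01 over all entries, and 28 of 35 differences were negative (47.4% of all entries). Groups did not overlap in 16 genes that lay lower (22.7% of all entries) and 4 that lay higher, GINS1, GINS3, RRM2 and TK1 (25.5%). With the batch as a block 6 genes fell (9.42% of all entries): POLA2 by 0.43 (adjusted p = 0.0023), MCM6 and RFC4 by 0.28, POLA1 by 0.29, MCM7 by 0.26 and MCM4 by 0.19. In that model RRM2 (0.39, adjusted p = 0.0027) and TK1 (0.39, adjusted p = 0.014) rose (12.7%).

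The interaction asks whether LATS siRNA acted differently with and without p53 siRNA. All 35 interaction terms were positive, from 0.04 to 0.72 with a median of 0.25, where 66.9% of all entries were positive and their median was 0.10. After rescaling 34 were positive, CDC6 being at -0.05. None passed with limma in either direction (0% and 0% of all entries), with 8 of the 35 positive and 0 negative at an unadjusted p under 0.05 (5.53% and 1.02% of all entries). With the batch as a block 3 passed (1.75% of all entries): MCM2 (0.45, adjusted p = 0.033), GINS1 (0.60, adjusted p = 0.031) and TK1 (0.72, adjusted p = 0.028). With both the block and the rescaling 0 passed. So the genes were mostly below siControl after LATS siRNA alone and nearer to the sip53 level when p53 siRNA was added, but single genes passed a test of that difference only in the model with the block and without rescaling.

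**Figure D3:**
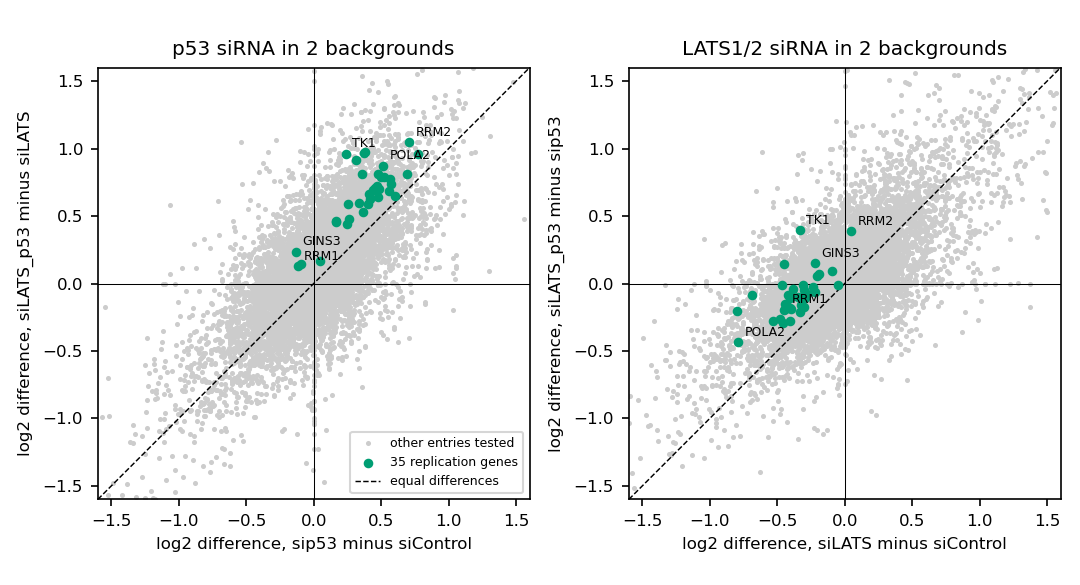
Log2 difference with p53 siRNA (left) and with LATS siRNA (right) on control siRNA (horizontal axis) against the same siRNA on top of the other knockdown (vertical axis), with the 35 replication genes in green, other entries tested in grey and a dashed line for equal differences; entries beyond 1.6 on either axis are not drawn. The replication genes lie above the diagonal in both panels, since all 35 interaction terms were positive.

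Within origin licensing, the MCM2-7 ring genes differed by -0.53 to -0.30 with LATS siRNA alone, and the loaders CDC6 and CDT1 by -0.05 and -0.09. This contrast of ring and loaders was not tested, and both were higher with p53 siRNA alone. MCM2 stood at 11.27 and 11.32 in siControl, 10.84 and 10.83 in siLATS, 11.62 and 11.69 in sip53, and 11.60 and 11.68 in siLATS_p53. The siLATS libraries were lowest and the 4 libraries with p53 siRNA formed 1 cluster above siControl, without overlap. MCM3 stood at 11.99 and 12.11 in siControl, 11.61 and 11.64 in siLATS, 12.46 and 12.52 in sip53, and 12.32 and 12.32 in siLATS_p53. Here sip53 lay above siLATS_p53, and siControl and siLATS below both. MCM7 had the weakest test in this role in the model without the block, and differed between batches. In siLATS_p53 against siLATS its adjusted p was 0.028 with limma, and 3.5e-06 with the batch as a block. MCM7 stood at 12.57 and 12.88 in siControl, 12.12 and 12.37 in siLATS, 13.09 and 13.33 in sip53, and 12.80 and 13.09 in siLATS_p53. Replicate 2 was higher in every group, so that siControl replicate 2 overlapped siLATS_p53 replicate 1, although all 4 groups kept their order within each batch. The remaining ring genes MCM4, MCM5 and MCM6 had the same order of group means, with differences between siLATS_p53 and siLATS of 0.71, 0.72 and 0.66.

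The loaders CDC6, an ATPase that works with ORC, and CDT1, which brings the ring to the origin, overlapped between siLATS and siControl. CDC6 stood at 10.29 and 10.33 in siControl, 10.19 and 10.32 in siLATS, 10.96 and 10.86 in sip53, and 10.98 and 10.82 in siLATS_p53. For CDC6 the sip53 and siLATS_p53 libraries overlapped too. CDT1 stood at 8.77 and 9.03 in siControl, 8.78 and 8.83 in siLATS, 9.60 and 9.75 in sip53, and 9.71 and 9.83 in siLATS_p53. Every library with p53 siRNA was above every library without it in both genes.

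**Figure D4:**
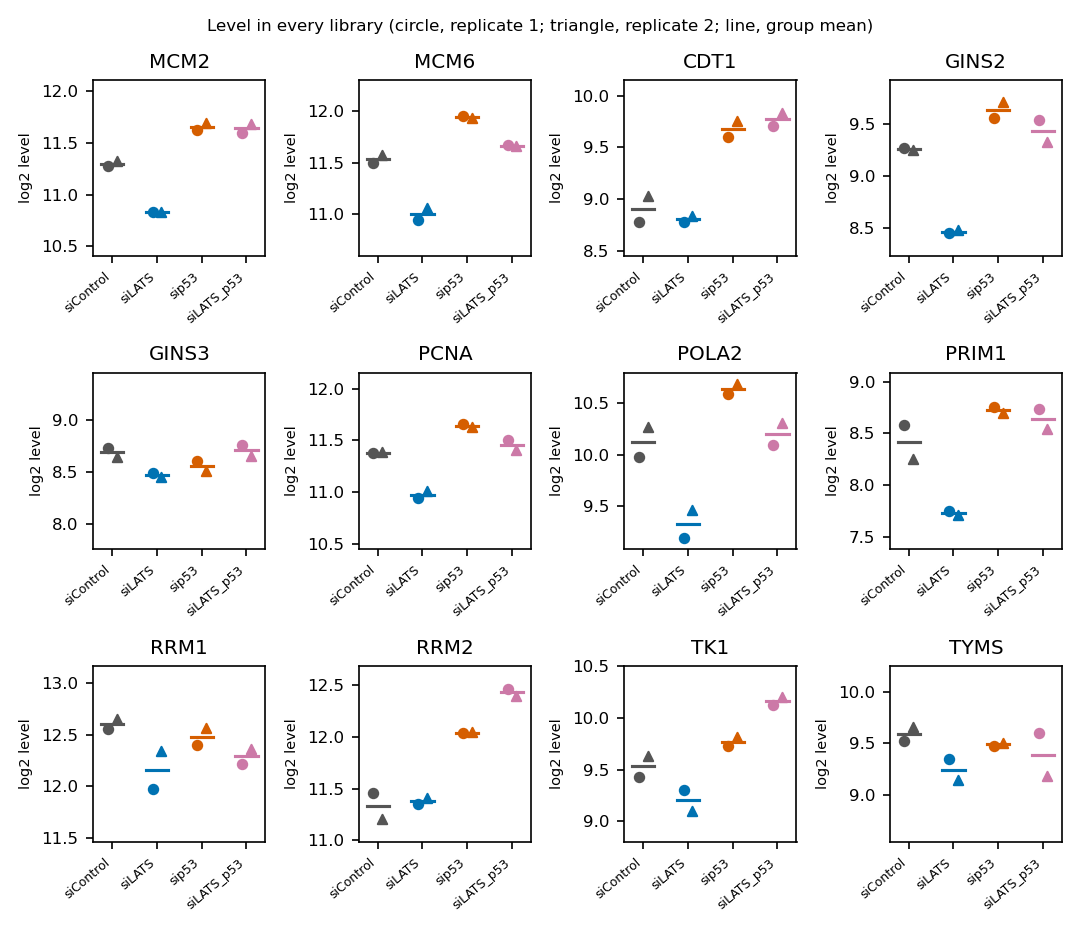
Log2 level (vertical axis) of 12 replication genes in each siRNA group (horizontal axis), with circles for replicate 1, triangles for replicate 2 and lines for the group mean; each panel spans the same range. MCM2 and GINS2 are lowest in siLATS, while RRM2 in siLATS lies between its siControl libraries and is highest in siLATS_p53.

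Among the genes that activate the helicase, GINS2 and GINS1, subunits of the 4-part GINS complex, had the strongest tests. GINS2 stood at 9.27 and 9.25 in siControl, 8.44 and 8.48 in siLATS, 9.56 and 9.71 in sip53, and 9.54 and 9.33 in siLATS_p53. Its siLATS libraries were far below the rest, and its sip53 and siLATS_p53 libraries differed by less than those of siLATS and siControl. GINS1 stood at 9.87 and 10.03 in siControl, 9.38 and 9.62 in siLATS, 10.24 and 10.40 in sip53, and 10.48 and 10.46 in siLATS_p53. For GINS1 the combined knockdown was highest. The subunit GINS3 passed no test. GINS3 stood at 8.74 and 8.65 in siControl, 8.50 and 8.45 in siLATS, 8.61 and 8.51 in sip53, and 8.77 and 8.65 in siLATS_p53. Its siLATS libraries were lowest and its siControl and siLATS_p53 libraries overlapped. MCM10, which binds the activated helicase, and CDC45, its co-factor, had siLATS_p53 minus siLATS differences of 0.78 and 0.59, and GINS4 of 0.82.

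PCNA is the clamp that tethers polymerases, and the RFC proteins load it. PCNA stood at 11.37 and 11.38 in siControl, 10.95 and 11.01 in siLATS, 11.66 and 11.62 in sip53, and 11.51 and 11.41 in siLATS_p53. Its groups did not overlap in any comparison, with siLATS lowest and sip53 highest. RFC3 stood at 10.27 and 10.20 in siControl, 9.73 and 9.85 in siLATS, 10.66 and 10.81 in sip53, and 10.61 and 10.55 in siLATS_p53. RFC3 had the same order. RFC5 stood at 9.41 and 9.31 in siControl, 9.12 and 8.93 in siLATS, 9.55 and 9.26 in sip53, and 9.28 and 9.11 in siLATS_p53. RFC5 passed only under LATS siRNA in the blocked model (-0.33, adjusted p = 0.020, against 0.19 unblocked), and its siControl and sip53 libraries overlapped. RFC2 and RFC4 had siLATS_p53 minus siLATS differences of 0.46 and 0.68, of which that of RFC4 passed in both models and that of RFC2 in the blocked one (adjusted p = 0.0067).

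POLA1 and PRIM1 are the polymerase and primase catalytic subunits of the complex that starts each strand. POLA1 stood at 9.96 and 9.82 in siControl, 9.38 and 9.47 in siLATS, 10.41 and 10.32 in sip53, and 10.10 and 10.04 in siLATS_p53. The 4 groups were apart, siLATS_p53 lying between siControl and sip53. PRIM1 stood at 8.58 and 8.25 in siControl, 7.75 and 7.71 in siLATS, 8.76 and 8.70 in sip53, and 8.74 and 8.55 in siLATS_p53. The siLATS libraries were lowest, and the 2 siControl libraries differed from each other by more than the libraries of any other group. POLE2, a non-catalytic subunit of the leading-strand polymerase epsilon, was the weakest by test in this role. POLE2 stood at 7.69 and 8.03 in siControl, 7.64 and 7.49 in siLATS, 8.53 and 8.58 in sip53, and 8.38 and 8.38 in siLATS_p53. Its siLATS libraries lay just below those of siControl, and those with p53 siRNA were above both. The catalytic subunit POLE and the primase complex subunit POLA2 had siLATS_p53 minus siLATS differences of 0.53 and 0.87.

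FEN1 removes flaps from Okazaki fragments, EXO1 is a 5′ exonuclease of mismatch repair, and UNG removes uracil from DNA. EXO1 stood at 10.35 and 10.34 in siControl, 9.90 and 9.94 in siLATS, 10.64 and 10.56 in sip53, and 10.66 and 10.37 in siLATS_p53. The siLATS libraries were lowest, and the siLATS_p53 libraries spread from near siControl to the level of sip53. UNG stood at 9.80 and 9.78 in siControl, 9.40 and 9.37 in siLATS, 9.93 and 9.97 in sip53, and 9.88 and 9.81 in siLATS_p53. The siLATS libraries stood below the other 6, which lay close together. FEN1 stood at 10.89 and 11.19 in siControl, 10.71 and 10.90 in siLATS, 11.37 and 11.54 in sip53, and 11.33 and 11.53 in siLATS_p53. FEN1 was higher in replicate 2 in every group, and its siControl and siLATS libraries overlapped.

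Within nucleotide supply the genes went apart. RRM1 and RRM2 are the large and small subunits of ribonucleotide reductase, TYMS makes thymidylate, and TK1 salvages thymidine. RRM2 stood at 11.45 and 11.21 in siControl, 11.35 and 11.41 in siLATS, 12.04 and 12.05 in sip53, and 12.46 and 12.40 in siLATS_p53. The siLATS libraries lay between the 2 siControl libraries, sip53 was higher, and siLATS_p53 was highest with no overlap. TK1 stood at 9.43 and 9.63 in siControl, 9.31 and 9.10 in siLATS, 9.73 and 9.81 in sip53, and 10.12 and 10.21 in siLATS_p53. TK1 was lowest in siLATS and also highest in siLATS_p53. TYMS stood at 9.52 and 9.66 in siControl, 9.35 and 9.14 in siLATS, 9.48 and 9.51 in sip53, and 9.60 and 9.19 in siLATS_p53. TYMS passed only under LATS siRNA in the blocked model (-0.34, adjusted p = 0.043, against 0.21 unblocked), and its siLATS_p53 libraries spanned nearly the whole range of the others. RRM1 stood at 12.55 and 12.65 in siControl, 11.98 and 12.34 in siLATS, 12.40 and 12.56 in sip53, and 12.22 and 12.36 in siLATS_p53. RRM1 was the single gene lower in the combined knockdown than in siControl in the model with the block. RRM2B, the small subunit that p53 is known to induce and that serves outside S phase, was not among the 35. RRM2B stood at 11.53 and 11.48 in siControl, 11.32 and 11.27 in siLATS, 10.05 and 9.92 in sip53, and 9.99 and 9.47 in siLATS_p53. It fell by 1.52 with p53 siRNA against siControl (SE 0.16, limma, adjusted p = 0.0080) and in siLATS_p53 against siLATS it fell by 1.57 (adjusted p = 0.0048), opposite to RRM2.

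CHAF1A and CHAF1B belong to the chromatin assembly factor CAF-1, UHRF1 guides maintenance of DNA methylation, and SLBP binds histone mRNA. CHAF1B stood at 9.16 and 9.19 in siControl, 8.82 and 8.88 in siLATS, 9.78 and 9.72 in sip53, and 9.62 and 9.56 in siLATS_p53. Its 4 groups did not overlap. UHRF1 stood at 10.45 and 10.67 in siControl, 10.32 and 10.38 in siLATS, 10.83 and 10.96 in sip53, and 10.87 and 11.03 in siLATS_p53. UHRF1 was highest where p53 siRNA was used, and sip53 overlapped siLATS_p53. SLBP stood at 10.36 and 10.25 in siControl, 10.01 and 10.05 in siLATS, 10.55 and 10.55 in sip53, and 10.55 and 10.40 in siLATS_p53. SLBP was lowest in siLATS and highest in sip53, where its level met that of siLATS_p53 replicate 1 at 10.55. CHAF1A was 0.79 higher in siLATS_p53 than in siLATS.

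The 2 batches also differed. Within groups, 7 of the 35 genes were higher in replicate 2 (limma, adjusted p under 0.05; 12.5% of all entries) and none lower (17.8%): MCM7 (0.27), GINS4 (0.24), CHAF1A (0.23), POLA2 (0.22), FEN1 (0.21), RRM1 (0.19) and MCM4 (0.18). The median of the 35 was 0.04, beside -0.03 over all entries. The library kit does not keep strand, so genes overlapping on opposite strands cannot be told apart: TYMS shares 39.1% of its exonic bases with ENOSF1, MCM2 22.7% with an antisense gene, GINS4 21.2%, GINS3 10.9% and MCM7 8.9% (with AP4M1), in the GENCODE 29 annotation. POLA2 (35.1%), RRM2 (20.2%) and PRIM1 (14.9%) share exonic bases with another annotated gene on the same strand. PCNA, RFC3, RFC5, FEN1, UNG, RRM2 and TYMS have processed pseudogenes of the same name, so their values are uncertain to the extent that reads were divided between copies.

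Other genes of replication, 52 of which were tested, are given by counts, with the genes of smallest p named. With LATS siRNA alone 10 were lower and 0 higher, median -0.32, among them the polymerase alpha anchor WDHD1 (-0.79), the alternative clamp loader subunit DSCC1 (-0.62) and the fork protection gene TIMELESS (-0.53). With p53 siRNA alone 8 were higher and 1 lower (RRM2B), median 0.39, with WDHD1 (0.67), ORC1 (0.61) and ATAD2 (0.49) having the smallest p among the higher. In the combined knockdown 13 were higher and 1 lower, median 0.28, with the smallest p for the single-strand binding subunit RPA1 (0.74), the histone chaperone ASF1B (1.02) and POLE3 (0.67). In siLATS_p53 against siLATS 36 were higher and 1 lower, median 0.64, with ASF1B at 1.34, WDHD1 at 1.05 and TIMELESS at 0.83. In siLATS_p53 against sip53 none passed with limma, with 7 lower and 3 higher at an unadjusted p under 0.05, and none passed in the interaction, with 8 higher and 0 lower at that unadjusted p.

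Genes of mitosis and of recombination and checkpoint control moved in the same directions. Of 35 mitotic genes 13 were lower with LATS siRNA (median -0.39), 12 higher with p53 siRNA (0.38), 14 higher in the combined knockdown (0.37) and 30 higher in siLATS_p53 against siLATS (0.67). Of 26 recombination and checkpoint genes the counts were 6 lower (-0.36), 6 higher (0.36), 5 higher (0.20) and 14 higher (0.58). None in either list passed the other way. The replication genes were thus not shown to differ from other cell division genes, and the differences between these lists were not tested.

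**Figure D5:**
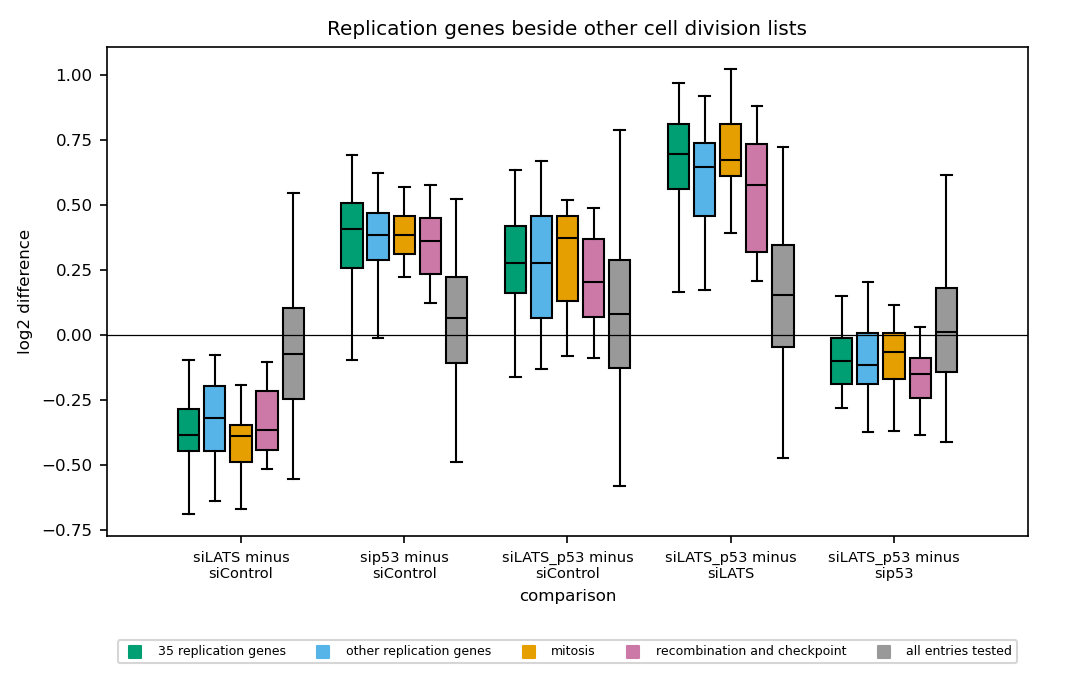
Log2 differences in 5 comparisons (horizontal axis) for the 35 replication genes, 52 other replication genes, 35 mitotic genes, 26 recombination and checkpoint genes and all 12315 entries tested; boxes are quartiles with the median, and whiskers the 5th and 95th percentiles. The cell division lists lie together, below all entries for siLATS minus siControl and above them for siLATS_p53 minus siLATS.

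Genes that act upstream in the cell cycle were measured in the same libraries. CDKN1A stood at 12.29 and 12.83 in siControl, 12.88 and 13.07 in siLATS, 9.82 and 10.06 in sip53, and 9.89 and 10.16 in siLATS_p53. Every library with p53 siRNA was below every library without it: it fell by 2.62 with p53 siRNA alone (SE 0.19, limma, adjusted p = 0.0024) and in siLATS_p53 against siLATS it fell by 2.95 (adjusted p = 0.0018). With LATS siRNA the difference of 0.42 did not pass (adjusted p = 0.22), except in the blocked model (adjusted p = 0.0022). E2F1 stood at 9.12 and 9.29 in siControl, 9.33 and 9.33 in siLATS, 9.67 and 9.90 in sip53, and 10.04 and 10.33 in siLATS_p53. E2F1, an activator of replication genes, was 0.98 higher in the combined knockdown (SE 0.14, limma, adjusted p = 0.0058). It was 0.86 higher in siLATS_p53 than in siLATS (adjusted p = 0.011). With LATS siRNA alone it lay at 0.12 (adjusted p = 0.64, and 0.37 in the blocked model), both siLATS libraries being above both siControl libraries. With p53 siRNA alone E2F1 was 0.58 higher (adjusted p = 0.067, and 0.00080 in the blocked model). In siLATS_p53 against sip53 it was 0.40 higher (adjusted p = 0.18, and 0.0092 in the blocked model). MYBL2 stood at 11.34 and 11.65 in siControl, 10.93 and 11.10 in siLATS, 11.97 and 12.19 in sip53, and 12.33 and 12.25 in siLATS_p53. MYBL2, a subunit of the complex that activates late cell cycle genes, was 1.27 higher in siLATS_p53 than in siLATS (SE 0.13, adjusted p = 0.0048). Its LATS siRNA difference of -0.48 passed in the blocked model alone (adjusted p = 0.00091, against 0.069).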

How the data were processed

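Polyadenylated RNA of 8 MCF10A libraries, 2 for each of 4 siRNA groups, was sequenced from unstranded TruSeq libraries that shared a lane, per the labels' protocols. TopHat and the hg19 build were used, per the submitters' processing notes. Nothing used here names the read counter, annotation or scaling, or gives the depth. The authors deposited log2 levels, as judged from the values: linear library sums varied by 1.48% on base 2 and by 8.02% on base e and 41.9% on base 10; the authors set values below 5 (32 on the linear scale) to 5. Values in the per-library files and in the series table were the same for 8 of 8 libraries.

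Entries had to exceed the floor in 2 or more libraries (12315 of 29991; 17422 never did). The test was limma (version 3.58.1, R version 4.3.3; eBayes with trend) in 1 model over the 4 groups (4 residual degrees of freedom, 3 with the batch as a block). No pseudocount was added. P-values were Benjamini-Hochberg adjusted over all entries tested, with a threshold of 0.05. The model was tested on simulated data. The simulated libraries were drawn independently, with no batch shared across groups, so the effect of batches on the calls was not tested there. No counts were recovered, so no count model was used. Groups came from the labels, which also say that the replicate number is a cell batch. Libraries with 1 number deviated together from their group means, with correlations of 0.565 to 0.726 in 6 pairs of groups. Counts of calls from the block fit are therefore given beside those without it.

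The 35 genes and the comparison lists were chosen with earlier results of these data known. In each role the 2 genes with the smallest p over 6 contrasts and the 1 with the largest are given in every library, and other genes may be named with a value. RefSeq windows of GRCh38.p14 were searched for motifs; single stretches of at most 30 bases are printed where a window may reach into a transcript, in place of the whole windows planned. Alternatives were another scaling, other filters on low values, a pseudocount of 1, the batch block, only the groups compared, and libraries left out. The transcript targeted by the p53 siRNA is not reported here.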

Additional observations from a re-analysis of the deposited data

Results flagged for a closer look

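4 of the 35 genes met a rule for a difference between the effects of 1 siRNA in 2 backgrounds. MCM2 had an interaction term of 0.45, GINS1 of 0.60 and TK1 of 0.72, each past the threshold in the limma model with the batch as a block (adjusted p = 0.033, 0.031 and 0.028) and not without it (adjusted p = 0.74 for each). In GINS1 and TK1 both siLATS libraries lay below both siControl libraries, while both siLATS_p53 libraries lay above both sip53 libraries. GINS3, with an interaction term of 0.37, lay in opposite directions for LATS siRNA with and without p53 siRNA, and for p53 siRNA with and without LATS siRNA; its interaction did not pass (adjusted p = 0.75). The cause was not tested.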

How the results depend on the processing

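The directions of the called replication genes did not reverse under any alternative run, but their numbers depended on the settings. Pairing the libraries by batch (replicate block) gave 28 lower genes for LATS1/2 knockdown in place of 10, 26 higher for p53 knockdown in place of 11, and 21 higher and 1 lower for the combined knockdown in place of 9 and 0. It gave 6 lower and 2 higher for LATS1/2 knockdown on p53 knockdown and 3 higher for the interaction, each 0 without it. The block with rescaling gave 19, 25, 18 and 1, and 8 and 2 (13.6%, 11.1%, 19.4% and 18.9%, and 10.6% and 12.3% of all entries). Rescaling alone gave 6 for LATS1/2 knockdown and 5 for p53 knockdown (2.83% and 0.936% of all entries). Fitting only the groups compared gave 1, 0 and 4 for the knockdowns against siControl (1.02%, 0.00832% and 4.94% of all entries). Leaving out both siControl replicate 1 and siLATS_p53 replicate 1 gave 0 for these and 0 for p53 knockdown on LATS1/2 knockdown. Leaving out 1 library at a time gave 0 to 8, 0 to 2 and 3 to 9 for the knockdowns against siControl, 1 to 31 for p53 knockdown on LATS1/2 knockdown, 0 to 1 higher for LATS1/2 knockdown on p53 knockdown and 5 to 9 higher in batch 2. Over all entries calls became fewer in each of these comparisons when a library of the groups compared was left out. They also became fewer without both siControl replicate 1 and siLATS_p53 replicate 1. The losses were thus not particular to the replication genes. Without a siControl library, higher calls for p53 knockdown on LATS1/2 knockdown became slightly more numerous among the 35 genes and all entries. The stricter filter gave 1 gene lower in batch 2. Some differences without a call changed sign when libraries were left out. RFC2 under p53 knockdown ranged from -0.067 (without siControl replicate 1) to 0.39, TYMS in the combined knockdown from -0.47 to 0.0081 (without siLATS_p53 replicate 2) and RRM2B for LATS1/2 knockdown on p53 knockdown from -0.52 to 0.00046 (without siLATS_p53 replicate 2). RRM2 between batches ranged from -0.097 to 0.0026 (without either siControl library), and the CDKN1A interaction from -0.61 to 0.073 (without both siControl replicate 1 and siLATS_p53 replicate 1). The causes were not tested. With 2 libraries a group, a difference near 0 does not show that a gene was unaffected.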
